A study of Mus musculus with 24 samples.

Results

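Dermal papilla (DP) cells of mice with Hdac1 and Hdac2 targeted for deletion in the DP were set against control DP cells. The comparison is at postnatal day 20 (P20), the first telogen of the mouse back skin. It takes 6 of the 24 libraries of the series, 3 from control mice and 3 from dM1/2 double mutants, and is described over 13845 of the 25755 genes of the table, those whose normalized reads averaged 10 or more at P20. The dM1/2 mice carry Cor-cre/+ with Hdac1 Flox/Flox and Hdac2 Flox/Flox, so that the Cre driven by the Corin locus acts on both genes in the DP. From immunostaining in the first anagen, the paper reports efficient deletion, with a few DP cells still positive for the proteins. The controls carry Cor-cre/+ as well, with 1 of 5 allele combinations, namely Hdac1 Flox/+ with Hdac2 Flox/+, Hdac1 Flox/+ with Hdac2 +/+, Hdac1 +/+ with Hdac2 Flox/+, Hdac1 Flox/+ with Hdac2 Flox/Flox, or Hdac1 Flox/Flox with Hdac2 Flox/+. The labels do not say which of these each control library has, and the controls may therefore lack up to 3 of the 4 alleles in the DP. The P20 mice were females, and each library came from the skin of a single mouse, dissociated with trypsin and collagenase and sorted for YFP, which marks the cells in which Cre has acted. Libraries of the same genotypes at P24 and P28, from males in early and mid anagen, and at P60, in the second telogen, for which the methods allow either sex, are used below only to show where P20 differs.

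The DP is a mesenchymal condensate that sits under the hair follicle, and it signals to the epithelium above it to start and sustain hair growth. In telogen it is quiescent, lies close to the stem cells of the secondary hair germ. Hdac1 and Hdac2 are class I histone deacetylases that remove acetyl groups from histone tails as the catalytic subunits of the Sin3, NuRD and CoREST corepressor complexes, and either enzyme can largely stand in for the other.

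The deposited values are read counts divided by a size factor for each library, called normalized reads here. The P20 libraries held between 11635062 and 13369732 reads on genes. One read was worth between 1.85 and 2.87 normalized reads in them. The libraries of P24 and P28 were deeper, with between 35469841 and 49331751 reads, and those of P60 shallower, with between 8171944 and 9724000. The p-values set a difference against the spread between the sampled mice. In limma, the test used here, the spread of each gene is moderated by a trend fitted over all genes tested. Its standard errors and p-values therefore do not rest on the spread of that gene alone. Differences were tested with limma on log2(normalized reads + 1), two-sided and with Benjamini-Hochberg adjustment over all genes, and a gene was called at an adjusted p-value under 0.05. Where nothing else is named, an adjusted p is from this test, and a log2 fold change is dM1/2 minus control on this scale. An exact permutation test over 3 libraries against 3 cannot give less than 0.1, the value of all 60 genes called at P20, so that no single gene passes on that test alone. The labelled cell type was present in every library, since none of the 15 DP markers was at 0 in all libraries and their summed level was between 38973 and 78678 normalized reads. The controls were less alike than the mutants. The log2 values of dM1/2 libraries correlated at 0.973 to 0.978 with each other. Those of control 1 correlated at 0.971, 0.969 and 0.964 with dM1/2 1, 2 and 3, and at 0.949 and 0.966 with control 2 and control 3. Control 2 had the lowest correlations with dM1/2, of 0.945, 0.956 and 0.952, and correlated at 0.973 with control 3. Values without control 1, the control most like dM1/2 1, are given below beside the counts they change. Control 1 also lay nearest to dM1/2 in the DP and fibroblast marker sums below, so leaving it out widens that difference. Counts without it are therefore not separate support for a result.

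Few genes passed the test at P20, and most of those that did were higher in dM1/2. Of the 13845 genes, 60 were called (0.433%), 49 higher (0.354%) and 11 lower (0.0795%), while 2735 genes had an unadjusted p-value under 0.05. The median log2 fold change was 1.24 among the higher genes and -0.81 among the lower ones, beside -0.01 over all genes tested. Among the rises were the ion channels Kcnq3 and Asic1, the ion exchangers Slc8a2 and Slc8a3, the guidance molecule Efnb3, the DP factor Sox18, the matrix protein Tnn and the Sin3 complex subunits Sin3a and Fam60a. The largest fall among the called genes was that of Pcsk6. All 60 genes were also called by edgeR and by DESeq2. Of them, 59 are annotated as protein-coding, and the identifier of Pcdhgb8 did not match the annotation. The excess of rises did not hold in every fit, since DESeq2 called 296 genes higher and 372 lower. Of all genes tested, 1671 lay higher and 1839 lower without overlap between the groups. The number of calls rested on single libraries. It was 1530 without control 1 (719 higher and 811 lower), 11 without control 2, 6 without control 3, 7 and 5 without dM1/2 1 or 2, and 0 without dM1/2 3, where 1869 genes had an unadjusted p-value under 0.05. Of the 60 genes, 60 were called again without control 1, 11 without control 2, 6 without control 3, 6 without dM1/2 1, 5 without dM1/2 2 and 0 without dM1/2 3, and no direction changed.

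**Figure D1:**
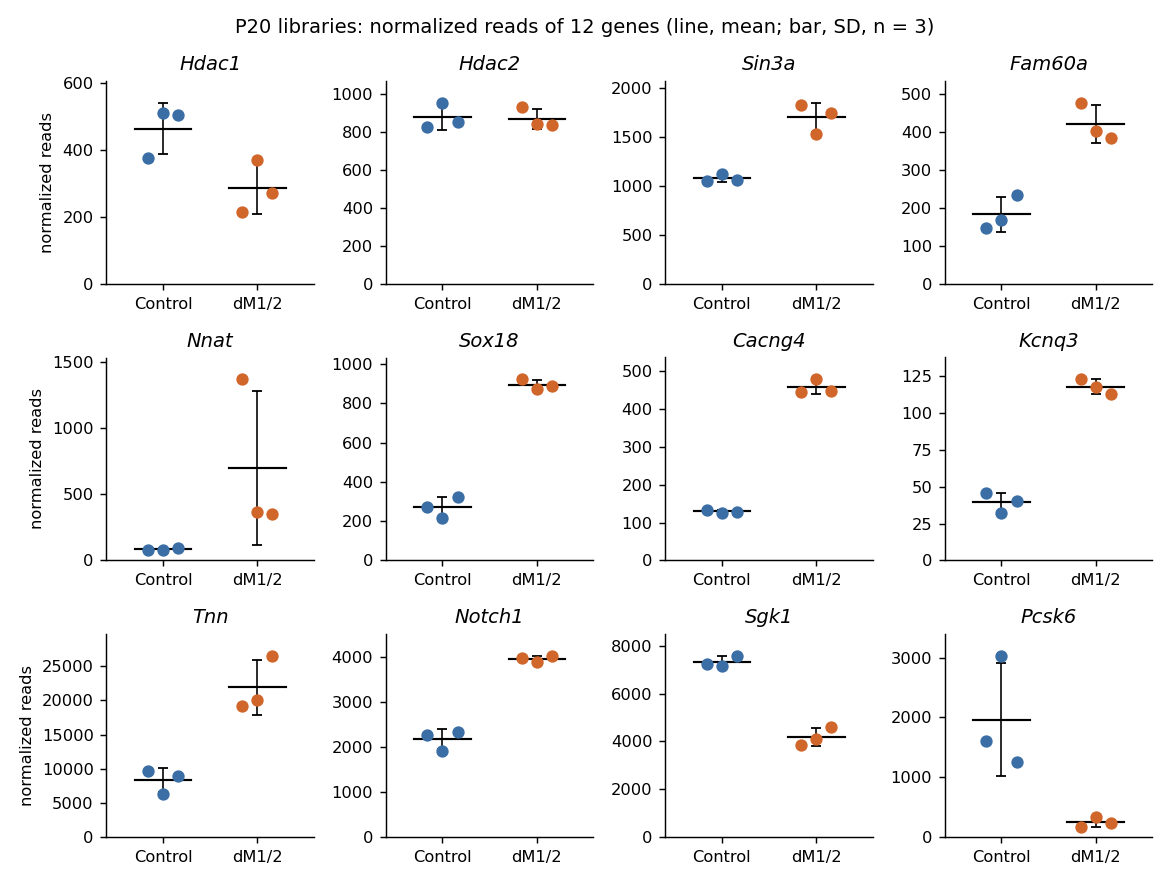
Normalized reads (vertical axes, linear and starting at 0) of 12 genes in the 3 control and 3 dM1/2 libraries of P20, with each point a library, the line the mean and the bar the SD. The groups overlap for Hdac2 only, and Nnat is highest in dM1/2 1 with 1367 normalized reads.

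The targeted genes were checked first. Hdac1 had 375, 511 and 505 normalized reads in controls and 216, 369.6 and 270.0 in dM1/2. All 3 dM1/2 libraries lay below all 3 controls, although dM1/2 2 was close to control 1, and the difference did not pass the threshold (log2 fold change -0.72, standard error 0.22, adjusted p = 0.122). It passed without control 1 (adjusted p = 0.0413). Hdac2 had 828, 952 and 852 normalized reads in controls and 928, 839 and 838 in dM1/2, and the groups overlapped (log2 fold change -0.01, standard error 0.12, adjusted p = 0.957). Counts per gene also include transcripts still made from a deleted allele, and cells in which an allele escaped deletion cannot be told apart from them here. Of the other 9 Hdac genes, Hdac6, a cytoplasmic enzyme that acts on tubulin, was the only one whose groups did not overlap, with 233, 254 and 344 normalized reads in controls and 427, 367 and 488 in dM1/2 (log2 fold change 0.63, standard error 0.19, adjusted p = 0.116). Such a count is near the share over all genes tested, of which 12.1% lay higher and 13.3% lower without overlap. Hdac3, the class I enzyme of the NCoR complex, had log2 fold change -0.07 and Hdac8 0.39, with adjusted p-values of 0.731 and 0.406.

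Among subunits of the complexes that hold Hdac1 and Hdac2, more lay higher than lower. Of 35 subunits tested, 1 was called higher and 0 lower, 8 lay higher without overlap between the groups and 2 lower, where 12.1% of all genes tested lay higher and 13.3% lower in this way. The called gene was Sin3a, the scaffold of the Sin3 complex, with 1049.9, 1117 and 1061 normalized reads in controls and 1821, 1531 and 1742 in dM1/2 (log2 fold change 0.65, standard error 0.11, adjusted p = 0.0491). Fam60a, a further subunit of this complex that was not on the list of subunits, was called too, with 147, 168 and 235 normalized reads in controls and 478, 403 and 385 in dM1/2 (log2 fold change 1.22, standard error 0.20, adjusted p = 0.0454). For both genes the lowest dM1/2 library was well above the highest control. Rcor2, a CoREST subunit, had 99.1, 149 and 146 normalized reads in controls and 296, 226 and 227 in dM1/2 and missed the threshold (log2 fold change 0.93, standard error 0.22, adjusted p = 0.0821). The median of the list was 0.15, and its members ranged from -0.19 to 0.93. At P28 the log2 fold change of Sin3a was 1.35, and the effect at P20 minus that at P28 was -0.69 (adjusted p = 0.00748).

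Of the called genes, Nnat had the largest rise on the log2 scale. The gene, which encodes the imprinted proteolipid neuronatin, had 77.7, 78.5 and 91.8 normalized reads in controls and 1367, 367 and 351 in dM1/2 (log2 fold change 2.75, standard error 0.45, adjusted p = 0.0454). The controls lay close together, and dM1/2 1 was far above the other dM1/2 libraries. Cacng4, an auxiliary subunit of AMPA receptors, had 134, 124 and 129 normalized reads in controls and 446, 478 and 446 in dM1/2 (log2 fold change 1.81, standard error 0.14, adjusted p = 0.00448). The libraries of each group lay close together and the groups far apart. Trnp1, a nuclear protein of neural progenitors, had 56.2, 27.1 and 43 normalized reads in controls and 196, 117 and 203 in dM1/2, with dM1/2 2 the lowest of its group (log2 fold change 2.02, standard error 0.33, adjusted p = 0.0455). Ly75, the endocytic receptor DEC-205, had 29.5, 18.9 and 14.3 normalized reads in controls and 164, 84.1 and 85.1 in dM1/2 (log2 fold change 2.34, standard error 0.39, adjusted p = 0.0463). Atp1b1, the beta subunit of the sodium-potassium pump, had 131, 152 and 169 normalized reads in controls and 491, 480.2 and 523 in dM1/2 (log2 fold change 1.73, standard error 0.15, adjusted p = 0.00448). The groups did not overlap for any of these 5 genes, whose rises ran from 1.73 to 2.75.

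Channels and exchangers for ions were among the rises. Kcnq3, a voltage-gated potassium channel, had 45.5, 32.5 and 40.2 normalized reads in controls and 123, 117 and 113 in dM1/2 (log2 fold change 1.57, standard error 0.25, adjusted p = 0.0454). Asic1, an acid-sensing sodium channel, rose by 1.22 on the log2 scale (adjusted p = 0.0449). Slc8a2 and Slc8a3, which exchange sodium for calcium, rose by 1.31 and 0.98, with adjusted p-values of 0.0449 and 0.0379. Of 35 potassium channel genes tested, 1 was called higher and 0 lower, with a median of -0.14. Kcna6 had 10.7, 8.12 and 22.9 normalized reads in controls and 61.4, 33.2 and 49.9 in dM1/2, and did not pass the threshold (adjusted p = 0.105). The list of neuronal genes repressed by REST, a factor that recruits CoREST, had 0 of 23 members called in either direction and a median of -0.08. At P28, 18 of the 30 tested members of this list were called higher, against 20.0% of all genes, and at P24 10 of 23 were, against 14.8%.

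One guidance gene was called higher and one protocadherin lower. Efnb3, a transmembrane ephrin, had 279, 197 and 269.6 normalized reads in controls and 714, 516 and 575 in dM1/2 (log2 fold change 1.28, standard error 0.18, adjusted p = 0.0349). It was the only one of 57 semaphorin, plexin, ephrin and axon-guidance genes tested that was called. Of the 57, 12 lay higher without overlap and 8 lower, beside 12.1% and 13.3% of all genes, and the median was 0.03. Efna3 and Sema4g had log2 fold changes of 1.84 and 1.53 (adjusted p = 0.0984 and 0.0578), while Sema3c had -0.90 (adjusted p = 0.102). The adhesion receptor Adgrb1 (1.24), the leucine-rich repeat proteins Lrrn2 (1.32) and Lrfn4 (0.77) and trophinin, encoded by Tro (1.69), were called higher. Pcdhgb8, a gamma protocadherin, was called lower, with 228, 333 and 298 normalized reads in controls and 141, 97.4 and 117 in dM1/2 (log2 fold change -1.27, standard error 0.21, adjusted p = 0.0464). The other 42 clustered protocadherins tested had no call, and the median of all 43 was 0.02.

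Pcsk6 stood out among the falls. It encodes a proprotein convertase that cleaves precursors of the TGF-beta family and activates corin, the protease whose gene drives the Cre of these mice. Pcsk6 had 1602, 3030.0 and 1253 normalized reads in controls and 173, 332 and 233 in dM1/2 (log2 fold change -2.94, standard error 0.32, adjusted p = 0.0163), a mean that was 7.98-fold lower in dM1/2. Control 2 was well above the other controls, and every dM1/2 library was well below every control. The gene lies on chromosome 7 from 65861734 to 66050386 of GRCm38. Of the other convertases, Furin had 4524, 4794 and 4337 normalized reads in controls and 4809, 4329 and 4185 in dM1/2, with log2 fold change -0.04 (adjusted p = 0.875), and Pcsk5 had -0.25 (adjusted p = 0.498). Pcsk2 lay higher without overlap, with log2 fold change 0.86 (adjusted p = 0.26). Pcsk6 had log2 fold changes of -0.50 at P24, -0.41 at P28 and 0.24 at P60, none of which was called. The difference of its effect at P20 from these did not pass the threshold, with adjusted p-values of 0.0609, 0.0842 and 0.174.

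The promoters of Pcsk6 and Nnat, which had the largest fall and the largest rise among the called genes, and of Gprasp1 and Gprasp2, neighbours on the X chromosome that rose together, are shown so that the sequence before these 4 starts can be read beside the values. The 150 bases before the annotated start come from RefSeq on GRCm38.p6, on the plus strand, at chr7:65861986-65862135 for Pcsk6, chr2:157559928-157560077 for Nnat, chrX:135742542-135742691 for Gprasp1 and chrX:135838884-135839033 for Gprasp2. RefSeq and the GENCODE annotation used for gene positions differ in the start of Pcsk6, so that this window lies inside the gene as GENCODE draws it, from 65861734. Capitals mark a GC box, searched as GGGCGG on both strands, and CCAAT and TATAAA were searched on both strands in the same way.
Pcsk6: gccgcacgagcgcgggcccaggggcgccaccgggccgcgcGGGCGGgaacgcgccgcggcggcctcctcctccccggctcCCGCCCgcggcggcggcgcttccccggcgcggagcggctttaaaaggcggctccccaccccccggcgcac
Nnat: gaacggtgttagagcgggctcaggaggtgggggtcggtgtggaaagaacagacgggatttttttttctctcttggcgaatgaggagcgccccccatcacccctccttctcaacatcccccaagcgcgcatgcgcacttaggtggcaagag
Gprasp1: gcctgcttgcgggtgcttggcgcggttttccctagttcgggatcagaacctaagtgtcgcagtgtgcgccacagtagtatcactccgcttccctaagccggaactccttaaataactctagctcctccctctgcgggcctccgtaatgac
Gprasp2: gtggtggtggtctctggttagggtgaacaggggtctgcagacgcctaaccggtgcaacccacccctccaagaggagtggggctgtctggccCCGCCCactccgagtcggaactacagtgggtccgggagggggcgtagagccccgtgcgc
The Pcsk6 window holds 29 CpG dinucleotides, more than 99.5% of the 32544 promoter windows of the same length in the table, and 2 GC boxes. The windows of Nnat, Gprasp1 and Gprasp2 hold 9, 10 and 9 CpG, above the median of 4. Gprasp2 has 1 GC box, and no CCAAT or TATAAA was found in any of the 4 windows. Of all windows, 28.8% hold a GC box, 24.4% CCAAT and 7.56% TATAAA. Of the 60 called genes, 38 had an entry in the table. A match describes the letters of a window, and no binding was measured.

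Gprasp1 and Gprasp2 encode proteins that sort G protein-coupled receptors to lysosomes. Gprasp1 had 461, 376 and 473 normalized reads in controls and 985, 969 and 943 in dM1/2 (log2 fold change 1.15, standard error 0.13, adjusted p = 0.0168), and Gprasp2 had 115, 81.2 and 152 normalized reads in controls and 284, 341 and 329 in dM1/2 (log2 fold change 1.49, standard error 0.23, adjusted p = 0.0449). With Tro, the deubiquitinase gene Usp11 and Amer1, which encodes an inhibitor of Wnt signalling, they made up 5 called genes among the 461 tested on the X chromosome, or 1.08% beside 0.44% on all chromosomes other than 4 and 10. Nnat was the only called gene among 45 imprinted genes tested, whose median was -0.01. Zdbf2, also imprinted, had log2 fold change 1.18 without overlap between the groups (adjusted p = 0.0952).

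Further genes called higher fell outside the groups described here. RNA-binding proteins were represented by Csdc2 (1.75) and Mex3a (1.59), and secreted or endocytic proteins by the galectin gene Lgals7 (1.66), neuritin, encoded by Nrn1 (0.90), and the endocytic receptor cubilin, encoded by Cubn (1.35). Mllt3, a subunit of complexes that promote transcription elongation, had 1.05, Traf4, an adaptor of cytokine receptors, 1.09, Isyna1, which makes inositol phosphate, 0.95, and Mgat3, a glycosyltransferase, 0.87. Also called higher were Pvrl2 (0.88), Unc119 (1.18), Srcin1 (1.40), Tmem151b (1.94), 6330403K07Rik (1.97), Tex15 (1.21), Cpne5 (1.22), Trp53i11 (1.29), Nol4l (1.33), Ccdc136 (1.41), Fam181b (1.44) and E130012A19Rik (1.01), with log2 fold changes in brackets.

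Of the lists of signalling pathways, the Notch list alone had a call, and those of FGF, BMP and TGF-beta, Wnt, hedgehog (0 of 13) and insulin-like growth factor genes (0 of 16) had none. Notch1, a receptor, had 2279, 1924 and 2343 normalized reads in controls and 3986, 3886 and 4021 in dM1/2 (log2 fold change 0.87, standard error 0.11, adjusted p = 0.0245), and the 3 dM1/2 libraries lay close together, far above the controls. It was the only call among 20 Notch pathway genes, with a median of 0.15. The ligand Jag2 had log2 fold change 1.50 (adjusted p = 0.155) and the target gene Hey2 0.84 (adjusted p = 0.125), while the target gene Hes1 had -0.33 (adjusted p = 0.219), each without overlap. Gdf11, a ligand of the TGF-beta family, rose by 1.22 on the log2 scale (adjusted p = 0.0194), with 252, 243 and 304 normalized reads in controls and 666, 591 and 601 in dM1/2. Gdf11 was not on the list of 38 BMP and TGF-beta signals, of which 0 were called, 6 lay higher without overlap and 7 lower, close to the 12.1% and 13.3% of all genes. Bmp4 had log2 fold change 0.51 (adjusted p = 0.114) and Bmp7 0.79 (adjusted p = 0.109).

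Fgf11, an intracellular member of the FGF family that binds sodium channels, rose by 1.10 (adjusted p = 0.0379), with 163, 146 and 186 normalized reads in controls and 318, 367 and 379 in dM1/2. The receptor gene Fgfr3 had 951, 371 and 519 normalized reads in controls and 1226, 1275 and 1409 in dM1/2 (log2 fold change 1.19, standard error 0.28, adjusted p = 0.0837), where control 1 was well above the other controls. Of the ligands that the DP sends to the epithelium, Fgf10 had log2 fold change 0.56 (adjusted p = 0.112) and Fgf7 -0.21 (adjusted p = 0.657). None of the 19 FGF genes of the list was called. Among 31 Wnt signals and inhibitors and 16 Wnt targets, 0 were called. The Wnt inhibitor genes Frzb and Sfrp5 lay on opposite sides, with log2 fold changes of 1.14 and -1.02 (adjusted p = 0.072 and 0.0662). Among targets, Axin2 and Lef1 had 0.46 and 0.54, and Myc and Ccnd1 had -0.79 and -0.56, each without overlap and without a call. Gli1, a target and effector of hedgehog signalling, had 1288, 1023 and 1391 normalized reads in controls and 2076, 2005 and 2034 in dM1/2 and narrowly missed the threshold (log2 fold change 0.74, standard error 0.13, adjusted p = 0.0521). The insulin-like growth factor binding proteins Igfbp2, Igfbp5 and Igfbp6 had log2 fold changes of -0.88, -0.78 and -0.93 without overlap, and none was called (adjusted p = 0.0573, 0.0837 and 0.102).

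The balance between DP and other fibroblast genes differed between the groups. All 15 DP markers had a positive log2 fold change, with a median of 0.54, and 7 lay higher without overlap, where 12.1% of all genes did. A wider DP signature of 39 genes, which holds all 15, had a median of 0.44 with 35 positive and 4 negative members, and 13 lay higher and 1 lower without overlap. The negative members were Igfbp4 (-0.43), Fgf7 (-0.21), Bmp6 (-0.19) and Wnt5a (-0.13), and Sox18 was the only call. Of the 15 only Sox18 was called, a transcription factor of the DP and of endothelium, with 273, 214 and 324 normalized reads in controls and 923, 874 and 888 in dM1/2 (log2 fold change 1.74, standard error 0.16, adjusted p = 0.00503). The libraries of each group lay close together, with no overlap. Alx4, a homeobox factor, had 2783, 1220.1 and 1715 normalized reads in controls and 4366, 3627 and 3355 in dM1/2 (log2 fold change 1.06, standard error 0.26, adjusted p = 0.0864). Pappa2, a protease that frees insulin-like growth factors and the DP marker with the most reads, had 18582, 10765 and 12167 normalized reads in controls and 22047, 25843 and 33764 in dM1/2 (log2 fold change 0.99, standard error 0.23, adjusted p = 0.0795). Corin had 761, 338 and 482 normalized reads in controls and 1203, 644 and 716 in dM1/2, and the groups overlapped (log2 fold change 0.72, standard error 0.31, adjusted p = 0.233). With DESeq2, which called 2.14% of genes higher and 2.69% lower, 6 of the 15 were called higher and 0 lower. Without control 1, where limma called 5.20% higher and 5.86% lower, 4 were higher and 0 lower.

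Over the same libraries, the 19 markers of interfollicular fibroblasts had a median log2 fold change of -0.72. Of these, 0 were called, and 10 lay lower without overlap and 0 higher, where 13.3% of all genes lay lower. Dpp4, a surface peptidase of dermal fibroblasts, had 3774, 4886 and 3479 normalized reads in controls and 2467, 2525 and 2304 in dM1/2 (log2 fold change -0.72, standard error 0.14, adjusted p = 0.0606). Lum and Dcn, small proteoglycans that bind collagen fibrils, had log2 fold changes of -0.81 and -0.72 (adjusted p = 0.0995 and 0.117). DESeq2 called 10 of the 19 lower, and without control 1 limma called 11 lower. Pdgfra, which dermal fibroblasts and the DP share, had -0.06 (adjusted p = 0.818). In bulk RNA of sorted cells, fewer cells of a type and less RNA per cell cannot be told apart, and the part of this balance in the differences of single genes was not tested.

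**Figure D2:**
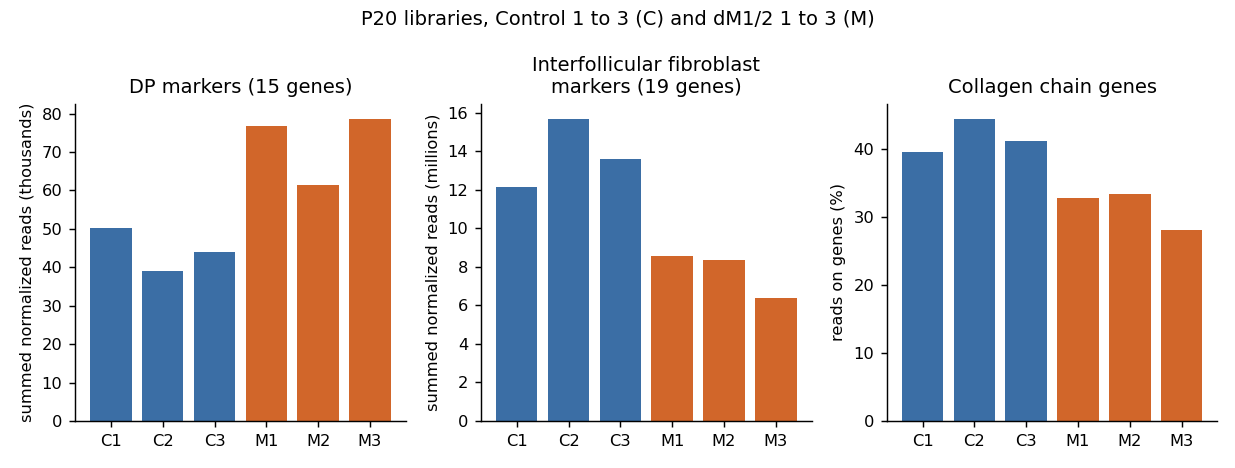
Summed normalized reads of the DP markers (left) and of the interfollicular fibroblast markers (middle), and the percent of reads on genes that fell on collagen chain genes (right), in each P20 library, with all axes starting at 0. In each panel the 3 dM1/2 libraries lie on one side of the 3 controls, with control 1 the nearest control to dM1/2. Col1a1, Col1a2 and Col3a1 count in both the middle and the right panel, which are therefore not separate measures.

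The summed DP markers were 50334, 38973 and 43859 normalized reads in control 1, 2 and 3 and 76834, 61523 and 78678 in dM1/2. The fibroblast markers, of which Col1a1 made up 49.4%, summed to 12150500, 15689300 and 13602100 in controls and 8548320, 8354710 and 6377310 in dM1/2. Col1a2 and Col3a1 are on this list as well. The same collagen genes hold most of the collagen share given below, so that this sum and that share are not separate measures. Control 1 had the highest DP sum and the lowest fibroblast sum of the controls. Markers of the other cell types had lower sums than the DP markers, but the lists differ in size and Pappa2 made up 35.2% of the DP sum. Averaged per gene as log2(normalized reads + 1), DP markers had 10.03, 9.65 and 10.02 in control 1, 2 and 3. There, dermal sheath markers had 9.94, 9.79 and 10.09 and pericyte markers 9.93, 9.78 and 9.85, not below the DP in every control. In dM1/2 1, 2 and 3, DP markers had 10.89, 10.53 and 10.47, above both. The defining keratinocyte genes Krt5 and Krt14 reached at most 229 and 90.6 normalized reads, both in dM1/2 3, and Krt27 and Krt71 were at 0 in every library. The keratinocyte markers summed to between 23165 and 35708 in controls and between 15928 and 20819 in dM1/2, but Cd34, which dermal fibroblasts also express, made up 92.8% of this. Melanocyte markers, of which Mitf made up 86.2%, ranged from 817 to 999 in controls and from 839 to 918 in dM1/2, with Oca2 and Slc45a2 at 0. Endothelial markers ranged from 1130 to 1699 and from 1150 to 1692. Immune markers ranged from 948 to 1255 in controls and from 697 to 1114 in dM1/2, skeletal muscle markers from 1058 to 1403 and from 657 to 1312, and Schwann cell markers from 1631 to 2183 and from 1721 to 3039. Csf1r, Des and Egr2 made up 58.6%, 90.9% and 67.9% of these sums. Averaged per gene as above, dM1/2 3 had 5.09 for keratinocyte, 4.20 for melanocyte and 5.55 for Schwann cell markers. The other libraries had at most 4.45, 3.26 and 5.11. For adipocyte, pericyte and dermal sheath markers dM1/2 3 was not the highest library. Adipocyte markers, of which Lpl made up 90.6%, ranged from 3790 to 10870 in controls and from 2367 to 5759 in dM1/2, and pericyte markers from 17322 to 20947 and from 17229 to 22280. Markers of the dermal sheath and arrector muscle ranged from 18702 to 23136 in controls and from 14621 to 20516 in dM1/2, with a median log2 fold change of -0.28 and 0 of 14 called.

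Collagen genes held a smaller share of the reads in dM1/2. Collagen chain genes held 39.5%, 44.4% and 41.1% of the reads on genes in controls and 32.8%, 33.3% and 28.0% in dM1/2, so that the groups did not overlap (exact two-sided permutation test, p = 0.1, the smallest that 3 against 3 can give). Col1a1 alone held 20.2% ± 1.04 of the reads of controls against 14.9% ± 1.50 in dM1/2 (SD over 3 libraries), Col1a2 10.9% ± 0.581 and 7.87% ± 0.856, and Col3a1 8.39% ± 0.697 and 6.64% ± 0.710. Sparc, which binds collagen, held 1.88% ± 0.113 and 1.34% ± 0.134. Fn1, a further matrix gene of the fibroblast list, did not share this, with 0.302% ± 0.0498 and 0.295% ± 0.096 and overlapping groups. In normalized reads, Col1a1 had a log2 fold change of -0.86 that limma did not call (standard error 0.92, adjusted p = 0.631) and that DESeq2 did (adjusted p = 7.87e-05). The groups did not overlap for Col1a1, and the limma standard error also draws on other genes of like level. Of 40 collagen chains tested, 0 were called by limma, 15 lay lower without overlap and 4 higher, beside 13.3% and 12.1% of all genes, and the median was -0.37. DESeq2 called 13 lower and 2 higher, beside 2.69% and 2.14%.

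The chains that lay higher were those of less abundant collagens, Col9a2 (log2 fold change 1.03), Col13a1 (0.99), Col27a1 (0.93) and Col11a2 (0.86). Of 34 matrix proteases and inhibitors, 0 were called lower and 1 higher, 12 were lower and 3 higher without overlap, beside 13.3% and 12.1% of all genes, and the median was -0.43. Mmp3, stromelysin, had 2917, 3347 and 3353 normalized reads in controls and 2019, 1844 and 2210.2 in dM1/2 and narrowly missed the threshold (log2 fold change -0.66, standard error 0.12, adjusted p = 0.0511). Adamts7, a metalloprotease that cleaves cartilage matrix, was called higher, by 0.85 on the log2 scale (adjusted p = 0.0422). Tnn, which encodes tenascin-W, also rose, with 9679.5, 6303 and 8946 normalized reads in controls and 19259.6, 20029 and 26557 in dM1/2 (log2 fold change 1.41, standard error 0.19, adjusted p = 0.026). It had the most reads of the 60 called genes, and every dM1/2 library was far above every control. Agrn, the basement membrane proteoglycan agrin, rose by 0.90 (adjusted p = 0.031) and was the only call among 32 basement membrane and integrin genes, whose median was -0.24.

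**Figure D3:**
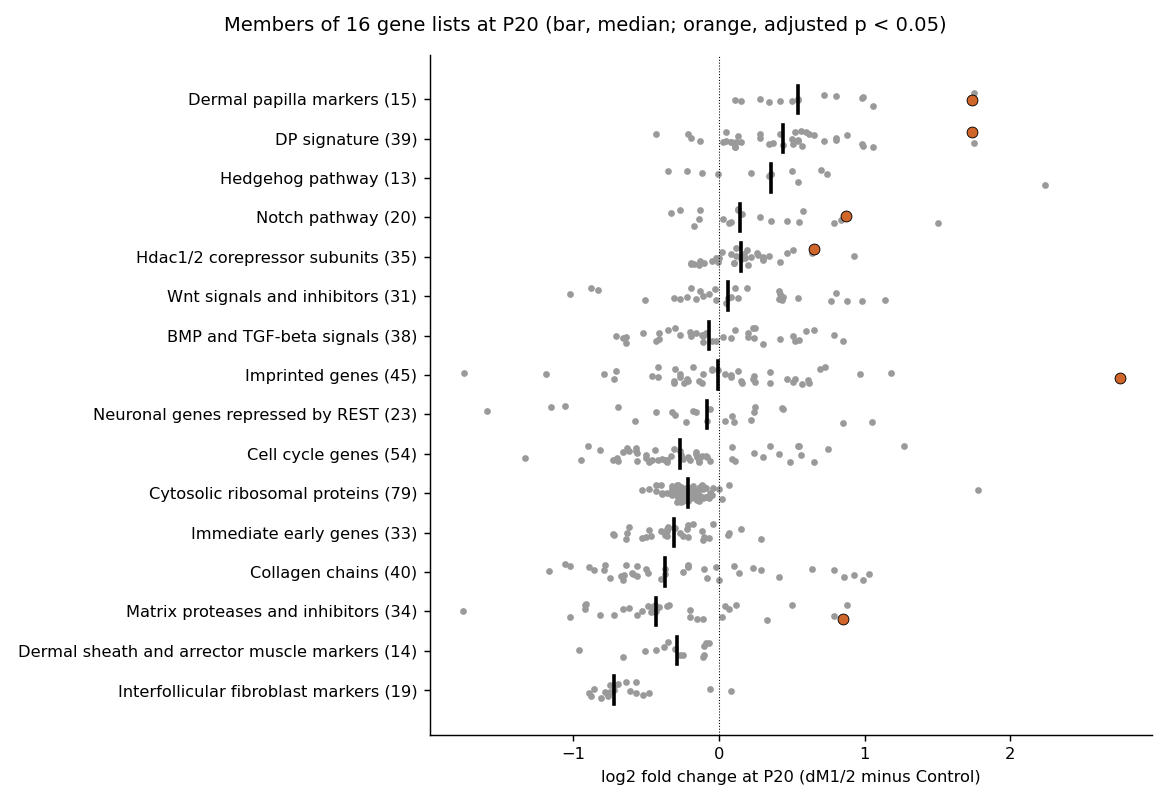
Log2 fold change at P20 (dM1/2 minus control, horizontal axis) of each tested member of 16 gene lists, with 1 point a gene, the number tested in brackets, the black bar the median and orange points the genes called by limma. The medians run from 0.54 for the DP markers to -0.72 for the interfollicular fibroblast markers, and 6 points are orange, for Sox18 (in 2 lists), Notch1, Sin3a, Nnat and Adamts7.

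The other falls were smaller. Sgk1, a kinase induced by glucocorticoids, had 7256, 7145 and 7595 normalized reads in controls and 3854, 4121 and 4598 in dM1/2 (log2 fold change -0.81, standard error 0.11, adjusted p = 0.0274). Cybrd1, a ferric reductase of the plasma membrane, had 3115, 3398 and 3336 normalized reads in controls and 1994, 1939 and 1790.3 in dM1/2 (log2 fold change -0.78, standard error 0.10, adjusted p = 0.0245). Qpct, which cyclizes glutamine at the ends of peptides, had 4631, 6582 and 5854 normalized reads in controls and 3045, 3205 and 2366 in dM1/2 (log2 fold change -0.98, standard error 0.16, adjusted p = 0.0458). These 3 genes had many reads in each control library, with all dM1/2 libraries below all controls. Wisp2, a matricellular protein of fibroblasts, had log2 fold change -0.78 (adjusted p = 0.0491), Tcn2, the cobalamin carrier transcobalamin, -0.68 (adjusted p = 0.0491) and Fam180a -1.14 (adjusted p = 0.0426). Tor3a, Fam198b and Emid1 had -0.81, -0.91 and -0.64.

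Immediate early genes are those that cells induce within minutes of a stimulus. The list used here also holds the heat-shock and chaperone genes Hspa1a, Hspa1b, Hspa8, Dnajb1 and Hsp90aa1. Of the 33 members tested, 0 were called, 15 lay lower without overlap and 0 higher, beside 13.3% and 12.1% of all genes, and the median was -0.31. Of the heat-shock and chaperone genes, only Hspa8 was among those lower without overlap. Klf4 and Klf2 had log2 fold changes of -0.64 and -0.72 (adjusted p = 0.151 and 0.139), but Fos and Egr1 had -0.07 and 0.15 and their groups overlapped. DESeq2 called 4 of the 33 lower, beside 2.69% of all genes. None of the 19 clock genes was called, and the best-known outputs varied widely within dM1/2. Nr1d1, a repressor of the clock, had 7786, 3828 and 4867 normalized reads in controls and 8782, 2437 and 633 in dM1/2, and the clock output gene Dbp had 1813, 1758 and 2312 normalized reads in controls and 1971, 1315 and 383 in dM1/2. In both genes dM1/2 1 was the highest and dM1/2 3 the lowest of the mutants, and neither was called (adjusted p = 0.415 and 0.298).

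No gene on the lists of growth and death was called at P20. Of 54 cell cycle genes, 0 were called, and 4 lay lower without overlap and 2 higher, beside 13.3% and 12.1% of all genes. The median was -0.26, or -0.75 without control 1, where 4 were called lower and 1 higher, beside 5.86% and 5.20% of all genes. At P24 and P28, 48 and 49 of the 54 were called higher, beside 14.8% and 20.0% of all genes. Of 37 p53 pathway genes, 0 were called, with a median of -0.10, and Bbc3, which encodes the death factor Puma, had 268, 187 and 261 normalized reads in controls and 521, 398 and 429 in dM1/2 (log2 fold change 0.92, standard error 0.19, adjusted p = 0.0651). Trp53i11, whose name refers to p53, was not on this list and was called higher (log2 fold change 1.29, adjusted p = 0.0454). Of 35 genes of the Bcl2 family and apoptosis, 0 were called, with a median of -0.09. Among 79 cytosolic ribosomal proteins and 73 nuclear-encoded genes of the respiratory chain, 0 were called and the medians were -0.21 and -0.29. Of them, 75 and 71 had a negative log2 fold change, beside 7017 of all 13845 genes. Without control 1, 30 and 26 of these were called lower and 0 higher, beside the same 5.86% and 5.20%. At P24 and P28, 17 and 53 of the ribosomal genes were called higher, and 3 and 12 of the respiratory chain genes, beside 14.8% and 20.0% of all genes. Interferon and antigen processing genes (0 of 43 called, median -0.09), retinoid genes (0 of 16, median -0.09) and CDK inhibitors with pocket proteins (0 of 9, median 0.11) had no call either.

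The positions of the calls were compared with those of the targets. Hdac1 lies on chromosome 4 from 129516104 to 129542713 of GRCm38, and of 152 other genes tested within 5 Mb of it 1 was called (0.658%), Trnp1, at 3.95 Mb. Within 20 Mb it was 1 of 402 (0.249%). Hdac2 lies on chromosome 10 from 36974544 to 37001889, and 0 of 36 other genes within 5 Mb and 1 of 129 within 20 Mb were called, Sgk1 at 15 Mb. On the chromosomes without either target, 54 of 12269 genes (0.44%) were called.

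The DP marker balance at P20 was on the other side of 0 from that at the other ages. Each age has its own controls, and the median log2 fold changes of the 15 DP markers, in order of age, were 0.54, -0.61, -0.87 and -0.63. At P24, 0 of the 15 were called higher and 8 lower, where 11.8% of genes were called lower, at P28 3 higher and 3 lower, where 15.6% were called lower, and at P60 none of 14042 genes was called (0%). The effect at P20 was above that at P24 in 9 of the 15 and below it in 0, where 8.50% of all genes differed and 4.37% in this direction. It was above that at P28 in 5 and below it in 1, Prdm1, where 20.4% of all genes differed and 9.29% in this direction. It differed from that at P60 in 0 (0% of all genes), while 1756 genes had an unadjusted p-value under 0.05 in that contrast and edgeR called 1 gene. Corin had log2 fold changes of 0.72, -1.98, -3.33 and -1.14 at P20, P24, P28 and P60, and its effect at P20 was 2.70 above that at P24 (adjusted p = 0.00415) and 4.05 above that at P28 (adjusted p = 0.000859). The effect on Pappa2 was 2.35 above that at P24 (adjusted p = 0.00395). Leaving out any single P20 library gave between 6 and 8 of the 15 markers above P24 and 4 or 5 above P28, while a single fit over all 24 libraries gave 4 above P24 and 8 above P28. Stage and age differ together in these contrasts, sex does so too at P24 and P28 and may at P60, and they cannot be told apart. The fibroblast markers had medians of -0.72, -0.48, -0.42 and 0.32 at the 4 ages.

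**Figure D4:**
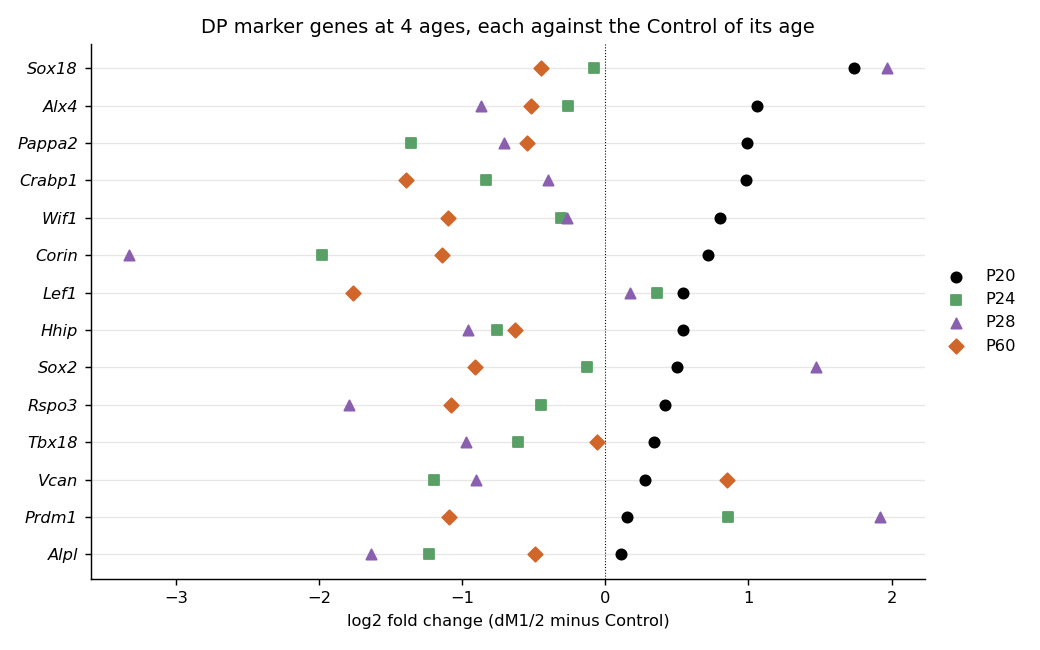
Log2 fold change (dM1/2 minus the controls of the same age, horizontal axis) of 14 DP markers at P20 (black circles), P24 (green squares), P28 (purple triangles) and P60 (orange diamonds). All 14 are above 0 at P20, and Corin reaches -3.33 at P28.

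The genes called at P20 were followed to the other ages, where the libraries are independent of those that chose them. Of the 49 genes higher at P20, 34 were called higher and 2 lower at P24, where 14.8% of all genes were called higher. At P28, 37 of 48 tested were called higher and 2 lower, where 20.0% were called higher. Their median log2 fold changes at the later ages were, in order, 0.99, 1.40 and 0.17. Of the 11 lower genes, 1 was called lower at P24 and 2 at P28, near the 11.8% and 15.6% of all genes, and their medians were -0.50 and -0.23. At P60, 31 of the 49 had a positive and 8 of the 11 also a positive log2 fold change. Nnat had log2 fold changes of 4.26 at P24 and 5.29 at P28, and its effect at P20 minus that at P28 was -2.53 (adjusted p = 0.0208). Tnn had 6.06 and Atp1b1 4.36 at P28, with differences of -4.65 (adjusted p = 0.00534) and -2.63 (adjusted p = 0.000313).

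The 2 genes higher at P20 that were called lower at P24 and at P28 were Kcnq3 and Scube3. Kcnq3 had log2 fold changes of 1.57 at P20, -1.28 at P24 and -2.89 at P28, and its effect at P20 was 2.85 above that at P24 (adjusted p = 0.00182) and 4.45 above that at P28 (adjusted p = 4.47e-05). Scube3, a secreted factor of the DP that promotes hair growth, had 994, 709 and 792 normalized reads in controls and 1858, 1467 and 1461 in dM1/2 at P20 (log2 fold change 0.94, standard error 0.16, adjusted p = 0.0458), and log2 fold changes of -1.91 at P24 and -3.31 at P28. Its effect at P20 was 2.85 and 4.26 above those, with adjusted p-values of 0.000694 and 0.000308. Sox18 was not called at P24, with log2 fold change -0.08, and was called higher at P28 with 1.97. Its effect at P20 was 1.83 above that at P24 (adjusted p = 0.0058). Emid1, lower at P20, was called higher at P28 with 0.52, and the difference of the effects was -1.16 (adjusted p = 0.00299). These genes were chosen for passing the test at P20, so that the P20 side of such a difference is not independent of the choice. Over the 49 higher genes, the effect at P20 differed from that at P24 in 12 (10 above), beside 8.50% of all genes (4.37% above), from that at P28 in 15 (6 above), beside 20.4% (9.29% above), and from that at P60 in 0.

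**Figure D5:**
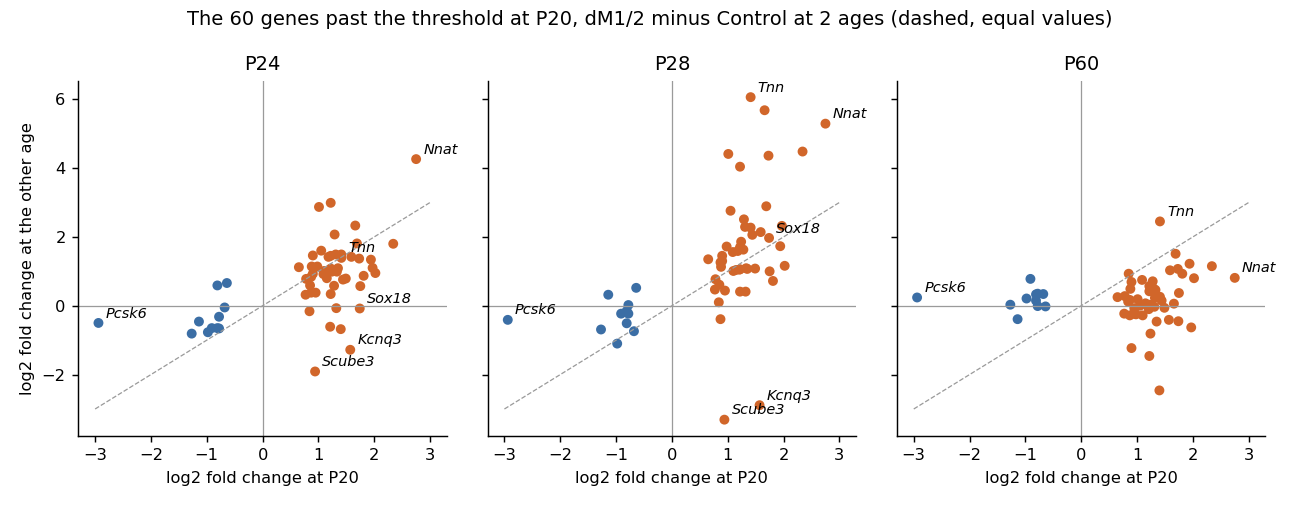
Log2 fold change (dM1/2 minus control) of the 60 genes called at P20 on the horizontal axis and at P24, P28 or P60 on the vertical axis, with genes higher at P20 in orange and lower in blue and the dashed line marking equal values. At P28 most orange points lie above 0 and Kcnq3 and Scube3 far below it, and Srcin1, not tested at that age, is not drawn. At P60 the points lie on both sides of 0, from -2.46 for Srcin1 to 2.45 for Tnn.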

How the data were processed

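DP cells were sorted for YFP from the skins of individual mice, and ribosome-depleted directional libraries were read from a single end. Per the labels and the study's methods, the authors trimmed reads with Trimmomatic, aligned them with TopHat2 to mm10 and counted them per Ensembl gene (GRCm38.p4) with HTSeq. The strand setting of the counting is not given in the sources used here. The deposited signal is the count of each gene divided by a size factor from DESeq2, with all 24 libraries scaled together by the authors. All values were whole multiples of 1 read (tolerance 0.01), so the counts could be recovered. The deposited fold changes and p-values of the authors' own comparisons were not used.

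Genes whose normalized reads averaged 10 or more were tested with limma 3.58.1 (trend, R 4.3.3) on log2(normalized reads + 1), two-sided, with Benjamini-Hochberg adjustment. Differences of effects between ages were contrasts of a fit over both ages. edgeR 4.0.16 and DESeq2 1.42.0 on the recovered counts, other filters, pseudocounts and scalings, a replicate block and leaving out each P20 library were alternatives. The limma fits with and without the block, edgeR, DESeq2 and the limma contrast between ages were tested on simulated data. Replicate libraries differed by more than sampling noise (chi-square per gene at least 10.39). Of 25755 genes, 25431 matched GENCODE annotation of GRCm38 and 7257 had no read at P20. Promoter sequences are from RefSeq. The gene lists (41, with 1143 genes, 13 not in the table) and the genes compared were chosen with earlier results of these data known. Named genes were the Hdac genes, the 20 largest rises and up to 12 largest falls among calls without overlap, called members of each list or otherwise up to 2 with the largest rise and fall, DP markers, and genes called by limma, with and without the block, edgeR and DESeq2 alike. Further genes were named after their values were seen, and some genes are not reported here.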

Additional observations from a re-analysis of the deposited data

Results flagged for a closer look

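Called genes of P20 and DP markers were flagged where the effect of the mutation at P20 differed from that at P24 or P28 by limma's test of the difference itself, at an adjusted p-value under 0.05. The values are the log2 fold change at P20 minus that at the other age. The effect at P20 was above that at P24 for Corin (2.70), Tex15 (1.81), 6330403K07Rik (0.87), Cacng4 (0.95), Vcan (1.48), Lrrn2 (1.39), Alpl (1.34), Usp11 (1.0), Crabp1 (1.81), Srcin1 (2.08), Scube3 (2.85), Alx4 (1.33), Csdc2 (1.18), Sox18 (1.83), Kcnq3 (2.85), Hhip (1.30) and Pappa2 (2.35). It was below that at P24 for Cpne5 (-1.76), Emid1 (-1.31), E130012A19Rik (-1.86) and Tor3a (-1.40). Against P28, the P20 effect was above for Corin (4.05), Isyna1 (0.51), Rspo3 (2.22), Cacng4 (1.10), Tbx18 (1.31), Srcin1 (1.18), Scube3 (4.26), Alx4 (1.94), Mgat3 (1.26), Kcnq3 (4.45) and Hhip (1.50). It was below for Cpne5 (-2.81), Atp1b1 (-2.63), Tnn (-4.65), Mllt3 (-1.71), Emid1 (-1.16), Prdm1 (-1.77), Sin3a (-0.69), E130012A19Rik (-3.40), Lgals7 (-4.03), Nnat (-2.53) and Trp53i11 (-1.22). Genes called at P20 were chosen on their P20 values, so that for them the difference is not independent of the choice. Each age has its own control libraries. No such difference passed the threshold against P60 with limma, where 1756 of all genes had an unadjusted p-value under 0.05 and edgeR called 1.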

How the results depend on the processing

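Of the 60 calls at P20, 60 were made again with a pseudocount of 10, edgeR with TMM or with DESeq2 size factors, DESeq2, and log2-CPM with TMM, 50 without a filter, 59 of 59 tested with a minimum of 10 reads in each library, and 7 in a single fit over all 24 libraries, and none changed direction. DESeq2 called 668 genes (296 higher, 372 lower) and the single fit 21 (19 higher, 2 lower). A pseudocount of 10 gave 18 genes lower, and the filter on every library 22. At a threshold of 0.01, 4 genes were left (4 higher, 0 lower), and at 0.05 with a change of 1 or more on the log2 scale 39 (36 higher, 3 lower). Leaving out 1 library gave between 0 and 1530 calls, 0 to 719 higher and 0 to 811 lower, between 643 and 1850 differences from P24, and 0 or 1 from P60. Against P60, a pseudocount of 10 gave 1 difference, edgeR 1 and the single fit 9. The number of DP markers above P24 fell to 4 in the single fit, and edgeR gave 9 and the single fit 8 above P28. These marker counts and list overlaps without control 1 were added after seeing the data. The median of the immediate early genes ranged from -0.37 to -0.20 with 1 library left out. Single log2 fold changes crossed 0 with 1 library left out for Hdac2 (from -0.06 to 0.05, with 0.05 without control 2 and 0.01 without dM1/2 2 or 3), Fos (from -0.27 to 0.10, with 0.07 without control 1 and 0.10 without dM1/2 1) and Krt5 (from -0.70 to 0.93, with -0.20 without control 3 and -0.70 without dM1/2 3). The cause of these changes was not tested.

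The replicate numbers share only a label. The deviations of same-numbered P20 libraries correlated at 0.23, 0.08 and 0.12, each library most with its own number, which is a hint from the data and not part of the design. With a replicate block 439 genes were called (240 higher, 199 lower), among them all 60, with 791 differences from P24 and 53 from P60, and 4 DP markers above P60.

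With 3 libraries a group, genes with few reads rest on few counts, since 1 read was worth up to 2.87 normalized reads.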
